A study of Mus musculus with 6 samples.

Results

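Disease associated microglia genes are a set of transcripts by which microglia are recognized when they gather around damaged tissue, plaques or lipid debris. Microglia that enter this state keep the receptor *Trem2* and its signaling adaptor *Tyrobp* at the cell surface, take up lipid, lower their homeostatic genes and raise genes of lipid handling, lysosomes and secretion. *Spp1*, which encodes the secreted integrin ligand osteopontin, and *Apoe*, which encodes the lipid carrier apolipoprotein E, are its best known secreted products, although in brain *Apoe* is also made in quantity by astrocytes, and *Spp1* by some neurons, border macrophages and fibroblasts. The 10 genes described here were taken by name from the deposited tables: *Spp1*, *Apoe*, *Lpl*, *Trem2*, *Tyrobp*, *Clec7a*, *Axl*, *Itgax*, *Cd9* and *Cd63*, out of 51826 genes. They were chosen by, among other things, their counts and fold changes in this same comparison, so their differences between genotypes are given as a description, including whether they met the thresholds, and no p value is printed for them. The question was whether *Spp1* and *Apoe* moved with the other 8 genes.

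Bulk RNA was measured in 6 cortical libraries from male BALB/c mice aged 6 to 8 weeks. The *Lgmn*+/+-IR group (n = 3) came from wild-type mice, and the *Lgmn*-/--IR group (n = 3) from *Lgmn* flox/flox: Cre+ mice, bred to lack asparagine endopeptidase (legumain), a lysosomal cysteine protease. Both groups received whole-brain X-rays at 10 Gy in a single dose, and their cortices were taken on day 3. Without non-irradiated libraries, which were not analysed here, every difference is one between genotypes after irradiation. The targeted line came from 1 clone of embryonic stem cells, and neither the promoter that drives Cre nor the strain of those cells is given in the sources used here. Libraries held between 41874462 and 46829441 counts. Levels are given as CPM (counts scaled to a fixed library total after normalization by the TMM method), and as the deposited FPKM, which is scaled for transcript length, where genes are compared with each other. Of the 51826 genes, 18345 passed a filter on low counts and were tested by the quasi-likelihood method of edgeR, with p values adjusted by Benjamini-Hochberg. A positive fold change means a higher level in *Lgmn*-/--IR. A gene is called changed where its adjusted p value is under 0.05 and its log2 fold change is beyond 1 in size.

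The targeted gene was checked first. *Lgmn* (GRCm38 chr12:102394084-102439813) had 5558, 5528 and 5775 counts in *Lgmn*+/+-IR replicates 1, 2 and 3, and 3703, 3269 and 4109 counts in *Lgmn*-/--IR replicates 1, 2 and 3. All *Lgmn*-/--IR libraries lay below all *Lgmn*+/+-IR libraries, with means of 129 ± 1.66 and 82.5 ± 11.6 CPM (SD, n = 3), and the log2 fold change was -0.64 (SE 0.12, edgeR adjusted p = 0.0315). The counts cover the whole gene and the deleted part is not named in the sources used here, so the lower level checks the genotype labels only in part.

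Promoter sequences are shown for *Spp1* and *Apoe*, whose levels were higher in *Lgmn*-/--IR, and for *Trem2*, the receptor of the same program, whose libraries overlapped between genotypes. Each is the run of 250 bases before the RefSeq transcription start on GRCm38.p6, written on the strand of the gene. The windows lie at chr5:104434861-104435110 on the plus strand for *Spp1*, at chr7:19699189-19699438 on the minus strand for *Apoe*, and at chr17:48346151-48346400 on the plus strand for *Trem2*. Capitals mark exact matches to the searched motifs.
Spp1: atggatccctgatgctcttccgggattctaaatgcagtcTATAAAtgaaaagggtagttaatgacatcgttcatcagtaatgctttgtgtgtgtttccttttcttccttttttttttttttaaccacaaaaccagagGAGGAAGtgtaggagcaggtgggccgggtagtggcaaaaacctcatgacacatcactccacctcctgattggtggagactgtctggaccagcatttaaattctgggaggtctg
Apoe: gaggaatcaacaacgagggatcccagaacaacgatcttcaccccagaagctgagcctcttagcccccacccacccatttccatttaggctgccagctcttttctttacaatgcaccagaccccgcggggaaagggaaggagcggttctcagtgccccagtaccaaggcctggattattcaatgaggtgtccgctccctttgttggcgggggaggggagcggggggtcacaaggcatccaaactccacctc
Trem2: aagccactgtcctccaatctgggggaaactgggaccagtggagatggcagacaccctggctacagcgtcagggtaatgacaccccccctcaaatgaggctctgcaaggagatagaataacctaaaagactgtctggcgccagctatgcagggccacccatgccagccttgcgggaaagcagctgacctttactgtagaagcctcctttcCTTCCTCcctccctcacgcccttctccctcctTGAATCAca

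The motifs were searched as exact letters on both strands. For PU.1, the myeloid lineage factor, they were GAGGAAG. For the E-box that the MiT factors of lysosomal genes read, they were CACGTG. For AP-1 the letters were TGANTCA. For the core promoter element at many tissue-specific genes, here called TATA, they were TATAAA. No matches overlapped each other in these windows. The *Spp1* window held a PU.1 match that began 113 bases before the start and a match to the TATA letters 211 bases before it. Position within the window was not part of the search, and whether any match is used was not tested. In the *Trem2* window a PU.1 match on the minus strand lay 41 bases before the start and an AP-1 match 9 bases before it. The *Apoe* window held none of the 4 motifs. Windows were found for 8 of the 10 genes, all except *Lpl* and *Tyrobp*. *Axl* and *Cd63* also held a PU.1 match, *Itgax* held an AP-1 match, and *Clec7a* and *Cd9* held none. The *Cd63* window (chr10:128909095-128909344) belongs to a start 8356 bases from the start of the gene span given for *Cd63* below, and lies inside that span. Among all 32851 windows of this length, 10.6% held the PU.1 letters, 6.02% the E-box, 6.75% the AP-1 letters and 12.4% the TATA letters.

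*Spp1* was the member with the largest increase. It is encoded at chr5:104435118-104441050 and was counted 129, 151 and 136 times in *Lgmn*+/+-IR replicates 1, 2 and 3, against 415, 363 and 326 times in *Lgmn*-/--IR. After normalization these were 3.02, 3.53 and 2.99 CPM against 9.34, 7.82 and 7.43 CPM. Every *Lgmn*-/--IR library was more than 2 times as high as every *Lgmn*+/+-IR library, with no overlap. The means were 3.18 ± 0.30 and 8.20 ± 1.01 CPM (SD, n = 3), a 2.58-fold difference with a log2 fold change of 1.37 (SE 0.16, 95% interval 1.00 to 1.73). *Spp1* was the only one of the 10 genes called changed, beside 377 of all 18345 genes tested, or 2.06%. Since the genes were picked with this contrast known, nothing is read from that count. A log2 fold change at least as large was found for 276 of the 18345 genes tested, *Spp1* included. The deposited FPKM gave 1.95 ± 0.21 and 5.01 ± 0.71, a 2.57-fold difference.

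*Apoe* was higher by a smaller factor, from a far higher level. It lies at chr7:19696109-19699188 and drew 40589, 45372 and 41776 counts in *Lgmn*+/+-IR against 62159, 55614 and 63905 counts in *Lgmn*-/--IR. The libraries read 951, 1060 and 919 CPM against 1399, 1198 and 1456 CPM. The lowest *Lgmn*-/--IR library, replicate 2, was still above the highest *Lgmn*+/+-IR library, also replicate 2. The means were 976.5 ± 73.8 and 1351 ± 136 CPM (SD, n = 3), a 1.38-fold difference with a log2 fold change of 0.47 (SE 0.11, 95% interval 0.22 to 0.72). *Apoe* did not reach the fold threshold and its adjusted p value did not pass, except with DESeq2 and when *Lgmn*-/--IR replicate 2 was left out. By FPKM, *Apoe* made up between 87.5% and 92.7% of the sum over the 10 genes in each library, and only 31 of the genes tested, *Apoe* among them, had a mean FPKM as high.

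The other secreted product of the set, *Lpl*, encodes lipoprotein lipase, which frees fatty acids from lipoproteins. It lies at chr8:68880491-68907448 and drew 819, 1468 and 2061 counts in *Lgmn*+/+-IR against 1860, 945 and 1066 counts in *Lgmn*-/--IR. Its CPM were 19.2, 34.3 and 45.3 against 41.9, 20.4 and 24.3, so the highest library of each genotype was 2.36 and 2.06 times the lowest. This spread within genotypes exceeded the difference between their means, 32.9 ± 13.1 and 28.8 ± 11.5 CPM (SD, n = 3). The log2 fold change was -0.19 (SE 0.36), and its 95% interval of -1.05 to 0.67 would hold a change of either sign.

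The receptor complex of the program gave overlapping libraries. *Trem2*, the lipid and *Apoe* receptor of microglia (chr17:48346401-48354147), had 465, 400 and 366 counts in *Lgmn*+/+-IR against 363, 457 and 298 counts in *Lgmn*-/--IR. Its CPM were 10.9, 9.34 and 8.05 against 8.17, 9.84 and 6.79, with a log2 fold change of -0.19 (SE 0.18, 95% interval -0.62 to 0.24). The interval leaves out an increase of the size seen for *Spp1*. *Tyrobp*, the adaptor through which *Trem2* signals (chr7:30413760-30417585), had 418, 402 and 373 counts against 390, 445 and 363. Its CPM of 9.80, 9.39 and 8.20 against 8.78, 9.59 and 8.27 overlapped, and its log2 fold change was -0.04 (SE 0.13, 95% interval -0.34 to 0.26). *Trem2* and *Tyrobp* kept close proportions, since the ratio of their CPM was 1.03 ± 0.07 (SD, n = 3) in *Lgmn*+/+-IR against 0.926 ± 0.103 in *Lgmn*-/--IR, with overlapping libraries.

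Of the other surface receptors, *Axl* was measured most precisely. *Axl* is a receptor tyrosine kinase that helps to clear dying cells (chr7:25757273-25788705), and it drew 1949, 2121 and 2160 counts in *Lgmn*+/+-IR against 2312, 2251 and 2427 counts in *Lgmn*-/--IR. Its CPM of 45.7, 49.5 and 47.5 against 52.0, 48.5 and 55.3 overlapped through 1 library of each genotype, and the log2 fold change was 0.13 (SE 0.09, 95% interval -0.09 to 0.34). *Clec7a*, the beta-glucan receptor Dectin-1 (chr6:129461591-129472779), was near the limit of detection. It had 2, 4 and 3 counts in *Lgmn*+/+-IR against 6, 6 and 4 counts in *Lgmn*-/--IR, and it alone of the 10 genes did not pass the filter on low counts and was not tested. Its summed counts of 9 and 16 gave a ratio of 1.68 after scaling for library size, with an exact interval of 0.70 to 4.32 that covers counting error only.

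*Itgax*, the integrin subunit CD11c (chr7:128129547-128150657), was also rare and went the other way. It had 14, 13 and 9 counts in *Lgmn*+/+-IR against 10, 3 and 2 counts in *Lgmn*-/--IR, so *Lgmn*-/--IR replicate 1 fell among the *Lgmn*+/+-IR libraries and the other two lay below them. The log2 fold change was -1.29 (SE 0.62), with a 95% interval of -2.74 to 0.17. The summed counts were 36 and 15, a ratio of 0.395 with an exact interval of 0.201 to 0.739, which again covers counting error only and not the spread between mice.

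The tetraspanins of the set differed from each other. *Cd9*, a membrane organizer that is also abundant in oligodendrocytes (chr6:125460266-125494791), had 1764, 2049 and 1706 counts in *Lgmn*+/+-IR against 1553, 1677 and 1254 counts in *Lgmn*-/--IR. Its CPM of 41.3, 47.9 and 37.5 against 34.96, 36.1 and 28.6 did not overlap, and its log2 fold change was -0.35 (SE 0.14, 95% interval -0.66 to -0.03), but it was not called. *Cd63*, a marker of late endosomes and exosomes (chr10:128900989-128912822), had 1745, 2353 and 1900 counts against 1984, 2395 and 1838. Its CPM of 40.9, 55.0 and 41.8 against 44.7, 51.6 and 41.9 overlapped throughout, with a log2 fold change of 0.01 (SE 0.15, 95% interval -0.34 to 0.35).

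**Figure D1:**
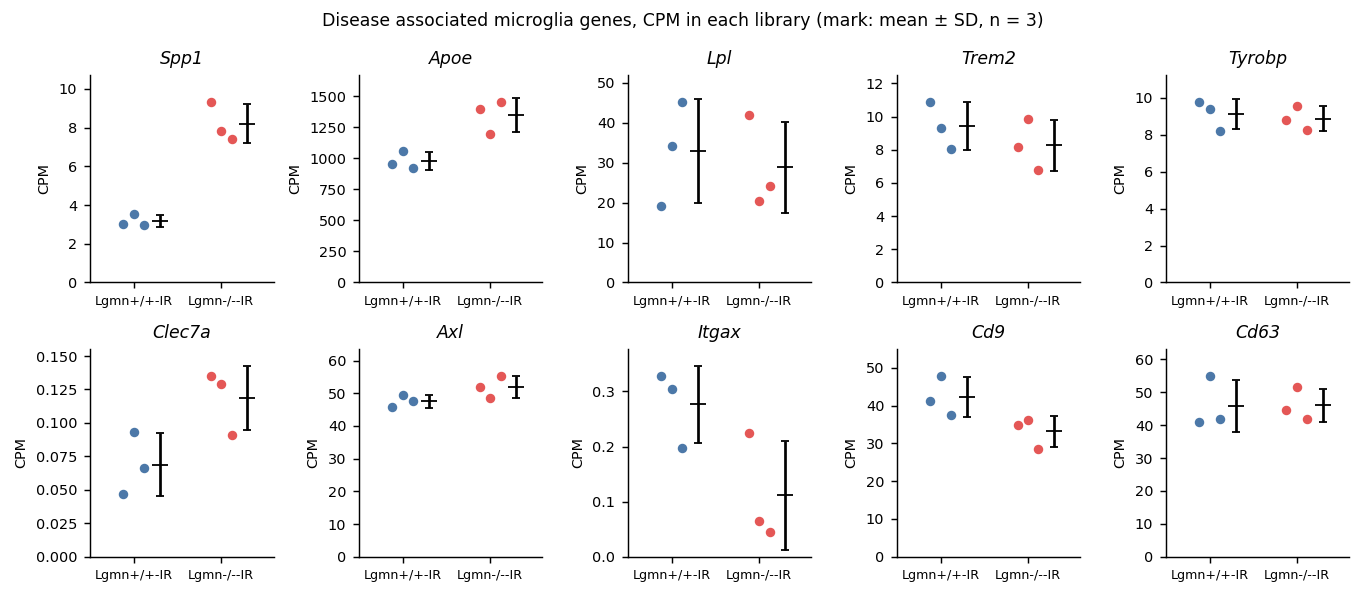
CPM (vertical axes, from 0, each with its own scale) of the 10 genes in 3 *Lgmn*+/+-IR libraries (blue points) and 3 *Lgmn*-/--IR libraries (red points), with the mean ± SD as a black mark. The red points of *Spp1* and *Apoe* lie above all blue points, those of *Cd9* lie below them, and the points of the other 7 genes overlap.

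Read side by side, the 10 genes did not move in 1 direction. Of the 9 genes tested, 4 had a log2 fold change above 0 and 5 below 0, and their median was -0.04, beside -0.01 for all genes tested. The genotypes did not overlap for 2 genes that were higher (*Spp1* and *Apoe*) and 1 that was lower (*Cd9*). Over all genes tested, 12.4% did not overlap and were higher, and 13.3% did not overlap and were lower. At an edgeR adjusted p value under 0.05 without a fold threshold, 1 of the 10 genes was higher and 0 were lower. By the same test 1.65% of all genes tested were higher and 1.68% lower. DESeq2 gave 2 higher, and its share over all genes tested is not given here. Without *Spp1* and *Apoe*, the 7 genes tested ran from -1.29 to 0.13 with a median of -0.19, and the 95% interval held 0 for 6 of them. These counts describe genes that were selected with the values known, and no p value is attached to them.

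**Figure D2:**
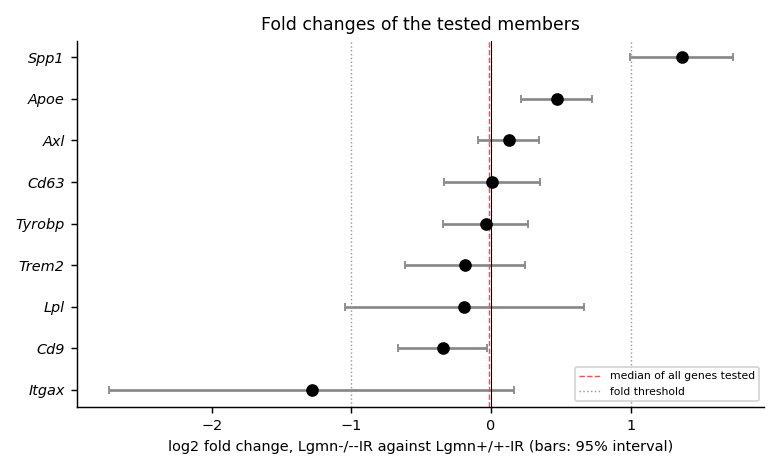
Log2 fold change of the 9 tested genes (points, horizontal axis) with its 95% interval (bars), for *Lgmn*-/--IR against *Lgmn*+/+-IR. *Spp1* stands alone past the dotted line at 1, *Apoe* is the other gene whose interval lies above 0, and the wide bar of *Itgax* reflects its 36 and 15 summed counts.

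Ratios within a library show the same values without normalization between libraries. *Spp1* over *Trem2* was 0.277, 0.378 and 0.372 in *Lgmn*+/+-IR against 1.14, 0.794 and 1.09 in *Lgmn*-/--IR. The ratio was thus 2.95 times as high in *Lgmn*-/--IR, and the libraries did not overlap. *Spp1* over *Tyrobp* went from 0.350 ± 0.036 to 0.926 ± 0.127 (SD, n = 3), which is 2.65 times as high. *Apoe* over *Trem2* was 87.3, 113 and 114 in *Lgmn*+/+-IR against 171, 122 and 214 in *Lgmn*-/--IR, 1.61 times as high on average and with only a small gap between the genotypes. *Spp1* and *Apoe* also changed relative to each other, since *Apoe* over *Spp1* went from 307 ± 7.09 to 166 ± 25.8 (SD, n = 3).

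Length-scaled levels placed the 10 genes in almost the same order in both genotypes. In *Lgmn*+/+-IR the mean FPKM ran from *Apoe* (799.9 ± 68.6) through *Cd63* (38.9 ± 7.24), *Cd9* (30.9 ± 4.18), *Tyrobp* (14.5 ± 1.41), *Axl* (11.0 ± 0.83), *Lpl* (7.16 ± 2.81), *Trem2* (5.14 ± 1.05), *Spp1* (1.95 ± 0.21) and *Itgax* (0.0680 ± 0.0137) to *Clec7a* (0.0264 ± 0.0097). *Cd63* and *Cd9*, and *Lpl* and *Trem2*, could not be ordered beyond the spread of their libraries. In *Lgmn*-/--IR the FPKM of *Apoe* was 1081 ± 70.5, and *Spp1* (5.01 ± 0.71) took the seventh place above *Trem2* (4.96 ± 1.25). The libraries of *Spp1* overlapped those of *Lpl* (6.09 ± 2.44) and of *Trem2*, so *Spp1* had no clear rank among these genes. *Tyrobp* and *Axl* also overlapped in this genotype. *Clec7a* and *Itgax* traded the last places with overlapping libraries.

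The wider program was read from a list of 31 other disease associated microglia genes. Of these, 27 were tested, 15 with a log2 fold change above 0 and 12 below 0, with a median of 0.09. Only *H2-D1*, the class I heavy chain, passed at an adjusted p value under 0.05 (log2 fold change 1.89, SE 0.16, edgeR adjusted p = 0.00133), and 0 genes were lower at that threshold. At an unadjusted p value under 0.05, 6 genes were higher and 1 was lower, and DESeq2 passed 3 in all (*H2-D1*, *B2m* and *Gpnmb*). The shares of all genes tested that pass unadjusted, or by DESeq2 or limma, are not given here. Such counts, in this list and in those below, therefore have no background beside them and are a description only. Without overlap between genotypes, 7 of the 27 were higher and 2 lower, beside 12.4% and 13.3% of all genes tested. *B2m*, the light chain of class I, did not pass by edgeR (1.05, SE 0.25, adjusted p = 0.0786), although its libraries did not overlap. The same held for *Gpnmb* (1.00, SE 0.29, edgeR adjusted p = 0.126). The most abundant genes of the list were the ferritin chain *Fth1* (0.01, SE 0.10, adjusted p = 0.963) and the lysosomal proteases *Ctsd* (-0.18, SE 0.10, adjusted p = 0.361) and *Ctsb* (0.09, SE 0.09, adjusted p = 0.639). The chemokine genes *Ccl3* and *Ccl4*, the cystatin gene *Cst7* and *Atp6v0d2* had too few counts to test.

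Genes that resting microglia express gave no call in either direction. Of 14 homeostatic genes, all were tested and 0 passed at an adjusted p value under 0.05 by edgeR or limma. DESeq2 passed 3 (*Csf1r*, *Fcrls* and *Selplg*). Without overlap between genotypes, 1 of the 14 was higher and 4 were lower, beside 12.4% and 13.3% of all genes tested. The lowest log2 fold change was that of *Fcrls* (-0.61, SE 0.16, edgeR adjusted p = 0.107), whose libraries did not overlap. At an unadjusted p value under 0.05, 1 was higher and 4 were lower in edgeR, and the median log2 fold change was -0.26. *Csf1r*, the receptor on which microglia depend for survival, had 2455, 2790 and 2666 counts against 2106, 2169 and 1917, with a log2 fold change of -0.40 (SE 0.09, edgeR adjusted p = 0.0731). *P2ry12*, the purinergic receptor of process movement, had -0.10 (SE 0.15, adjusted p = 0.760), and *Selplg*, a selectin ligand, 0.58 (SE 0.15, adjusted p = 0.0944). Thus 10 of the 14 genes lay below 0 without passing the test.

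In the 13 pan-myeloid genes, 1 passed. *Laptm5*, a lysosomal membrane protein of blood cells, fell from 59.6 ± 2.32 to 42.8 ± 2.08 CPM (SD, n = 3), with a log2 fold change of -0.48 (SE 0.09, edgeR adjusted p = 0.0341), and it passed in 9 of the 17 settings tried, though in 0 of the 6 fits that left out a library. At an unadjusted p value under 0.05, 2 genes were lower and 0 higher. The complement genes *C1qa* (-0.12, SE 0.11, adjusted p = 0.609), *C1qb* (-0.16, SE 0.11, adjusted p = 0.465) and *C1qc* (-0.33, SE 0.12, adjusted p = 0.205) did not pass, and the libraries of *C1qb* and *C1qc* lay below without overlap. Summed over the list, these genes gave 231, 242 and 223 CPM in *Lgmn*+/+-IR against 219, 190 and 197 CPM in *Lgmn*-/--IR. The sum was lower in every *Lgmn*-/--IR library, with fold 0.871 between the means. *Laptm5* had the largest difference in mean CPM of the 13 genes. Its means were 59.6 and 42.8 CPM, beside 232 and 202 CPM for the whole sum. The sum without *Laptm5* was not taken, so a fall of the list as a whole cannot be read from the sum. Of the 13 genes, 6 had a log2 fold change above 0 and 7 below 0. The number of microglia and the RNA per microglial cell cannot be told apart in bulk tissue. *Spp1* over this sum was 0.0137 ± 0.0008 (SD, n = 3) in *Lgmn*+/+-IR against 0.0405 ± 0.0025 in *Lgmn*-/--IR, 2.96 times as high, beside 2.58 times for *Spp1* in CPM.

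Partners of the individual genes were taken in turn. For *Trem2*, *Tyrobp* and *Clec7a* signaling, 11 of 13 partners were tested and 0 passed by edgeR (2 were lower at an unadjusted p value under 0.05, and DESeq2 passed 1), with a median of -0.28. Among them, *Adam10*, a sheddase that cleaves *Trem2*, had 0.35 (SE 0.26, adjusted p = 0.528). Its CPM were 34.5, 72.8 and 71.8 in *Lgmn*+/+-IR against 74.8, 75.0 and 78.2 in *Lgmn*-/--IR, so *Lgmn*+/+-IR replicate 1 stood apart. *Inpp5d*, the lipid phosphatase that dampens signaling, had -0.40 (SE 0.11, adjusted p = 0.118), and *Plcg2*, the phospholipase downstream of *Trem2*, 0.35 (SE 0.15, adjusted p = 0.282). *Ms4a6d*, from the gene cluster linked to soluble TREM2, had -1.09 (SE 0.25, adjusted p = 0.0677). Signaling partners therefore lay on both sides of 0.

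For *Apoe* and lipid handling, 23 of 24 partners were tested and 1 rose by edgeR. DESeq2 passed 3 (*Lrp8*, *Soat1* higher and *Angptl4* lower), limma on log2(FPKM + 1) passed *Lrp8* and *Angptl4*, and 4 genes were higher and 2 lower at an unadjusted edgeR p value under 0.05. *Lrp8*, the ApoE receptor 2, which also binds reelin, had 1010, 952 and 1077 counts in *Lgmn*+/+-IR against 3086, 2674 and 3013 counts in *Lgmn*-/--IR. Each *Lgmn*-/--IR library had more than 2 times the counts of any *Lgmn*+/+-IR library. The log2 fold change was 1.49 (SE 0.11, edgeR adjusted p = 0.000659), and it passed in 17 of 17 settings. Reelin itself, *Reln*, had 0.17 (SE 0.15, adjusted p = 0.585), and *Dab1*, the adaptor of the same receptor, 0.28 (SE 0.10, adjusted p = 0.201); both were looked at after the values of *Lrp8* were seen. The other lipid partners with high levels did not pass: *Clu* (0.17, SE 0.10, adjusted p = 0.417), the sorting receptor *Sort1* (0.08, SE 0.09, adjusted p = 0.691) and the endocytic receptor *Lrp1* (-0.19, SE 0.08, adjusted p = 0.279). The median of the list was 0.06.

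The receptors of osteopontin and its kinase gave 0 of 10 genes past the threshold, also by DESeq2 and limma and at an unadjusted edgeR p value under 0.05, with a median of 0.11. The most abundant were *Fam20c*, which phosphorylates secreted proteins (0.20, SE 0.15, adjusted p = 0.529), and the integrin subunits *Itgb5* (0.06, SE 0.12, adjusted p = 0.822) and *Itgb1* (0.04, SE 0.09, adjusted p = 0.864). *Itgav*, the partner subunit of *Itgb5*, varied widely, with 783, 3376 and 1603 counts against 1155, 2662 and 1104. Thus the listed receptors of *Spp1* held no call. Among relatives and ligands of *Axl*, 0 of 4 passed by any of these tests, with *Tyro3* at -0.23 (SE 0.10, adjusted p = 0.289), *Gas6*, the ligand of *Axl*, at -0.08 (SE 0.08, adjusted p = 0.668) and the receptor *Mertk* at 0.39 (SE 0.20). The partners of *Itgax* gave 0 of 3 by edgeR (1 was higher at an unadjusted p value under 0.05, and DESeq2 passed 1): its beta chain *Itgb2* had 0.09 (SE 0.28, adjusted p = 0.895) and its ligand *Icam1* 0.41 (SE 0.31, adjusted p = 0.531). Of the tetraspanins and their partners, 0 of 9 passed by edgeR (1 was lower at an unadjusted p value under 0.05, and DESeq2 passed 1), with *Cd81* at -0.00 (SE 0.10, adjusted p = 0.991) and the lysosomal *Lamp1* at 0.04 (SE 0.08, adjusted p = 0.825).

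**Figure D3:**
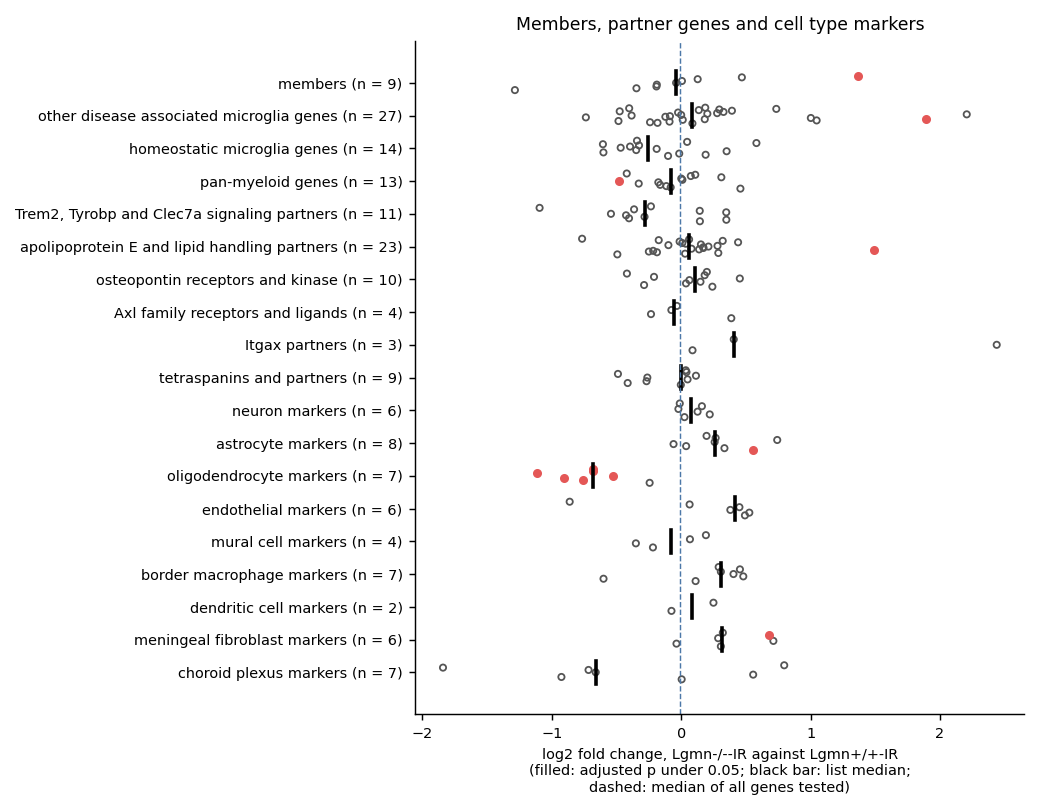
Log2 fold change (horizontal axis) of every tested gene in the 10 described genes, their partner lists and the marker lists, with filled red points for an adjusted p value under 0.05 and a black bar for the median of each list. Erythroid markers (median 6.66) and *Ly6c2* (-3.31) lie outside the plotted range and are left out. The oligodendrocyte markers form the group that lies furthest to the left with filled points, and the medians of the microglial lists lie between -0.28 and 0.09.

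Several cell types other than microglia express members of the set, and their markers were summed in each library. Oligodendrocyte markers fell: 6 of 7 were lower at an adjusted p value under 0.05 with a median of -0.68, among them the myelin genes *Mobp* (-1.12, SE 0.11, edgeR adjusted p = 0.0033) and *Mog* (-0.91, SE 0.14, adjusted p = 0.0171). Leaving out *Lgmn*+/+-IR replicate 1 or 2, or *Lgmn*-/--IR replicate 3, left 1 of 7 past the threshold, and leaving out *Lgmn*-/--IR replicate 1 left 2. Their summed levels were 4264, 4333 and 3579 CPM against 2363, 2540 and 2407 CPM. *Cd9* was lower together with them, but by less, since *Cd9* over this sum was 0.0104 ± 0.0007 (SD, n = 3) in *Lgmn*+/+-IR against 0.0136 ± 0.0016 in *Lgmn*-/--IR. The part of oligodendrocyte RNA in the difference of *Cd9* was not tested.

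Astrocyte markers rose for 1 of 8 genes, the water channel gene *Aqp4* (0.55, SE 0.10, edgeR adjusted p = 0.0374), which passed in 10 of the 17 settings, and 7 of 8 had a log2 fold change above 0. DESeq2 passed 2 (*Aqp4* and *Gja1*), 4 were higher at an unadjusted edgeR p value under 0.05, and 5 of 8 were higher without overlap. The summed levels of 3943, 4293 and 3962 CPM against 4106, 4571 and 4447 CPM overlapped, but the glutamate transporter gene *Slc1a2* made up 2353 of the mean of 4066 CPM in *Lgmn*+/+-IR and was the only marker below 0 (-0.06). Without it, a choice made after the values were seen, the sums were 1651, 1830 and 1660 CPM against 2083, 2227 and 2042 CPM, higher in every *Lgmn*-/--IR library by 1.24 times on average. *Apoe* over the sum of all 8 was 0.241, 0.247 and 0.232 in *Lgmn*+/+-IR against 0.341, 0.262 and 0.327 in *Lgmn*-/--IR, 1.29 times as high and without overlap. Over the sum without *Slc1a2* it was 0.576, 0.579 and 0.553 against 0.672, 0.538 and 0.713, 1.12 times as high and with overlap. The sum without *Slc1a2* was thus higher in *Lgmn*-/--IR, as *Apoe* was. The order of the libraries within *Lgmn*-/--IR was not shared, but 3 libraries are too few for anything to be read from their order. Replicate 2 had the highest sum and the lowest *Apoe* (1198 CPM), and replicate 3 the lowest sum and the highest *Apoe* (1456 CPM). The part of astrocyte RNA in the difference of *Apoe* was not tested.

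Meningeal fibroblast markers had 1 of 6 genes higher, the transporter gene *Slc6a13* (0.68, SE 0.12, edgeR adjusted p = 0.0275), which passed in 6 of the 17 settings. Their sums of 55.9, 64.4 and 57.7 CPM against 75.4, 76.5 and 78.03 CPM did not overlap, and *Spp1* over this sum was 2.00 times as high in *Lgmn*-/--IR. Border macrophage markers gave 0 of 7 genes past the threshold, also unadjusted and by DESeq2 and limma. Their sums were 5.91 to 6.53 CPM in *Lgmn*+/+-IR and 5.43 to 9.19 CPM in *Lgmn*-/--IR, highest in replicate 1. That library also had the most *Spp1*, but nothing can be read from the order of so few libraries. The part of fibroblasts and border macrophages in the difference of *Spp1* was not tested. Of 7 monocyte and neutrophil markers, *Chil3* and *Ly6g* had 3 counts or fewer in every library, 4 more were too low to test, and *Ly6c2* was lower (-3.31, SE 0.28, adjusted p = 0.00152). For dendritic cells, which also carry *Itgax*, 2 of 4 markers were tested and 0 passed, adjusted or not. Neuron (0 of 6) and mural (0 of 4) markers held no gene past the threshold in edgeR, DESeq2 or limma, adjusted or not. Endothelial (0 of 6) and choroid plexus (0 of 7) markers held none in edgeR, with 1 lower gene each at an unadjusted p value under 0.05, and DESeq2 passed 1 endothelial gene.

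Erythroid RNA differed most. All 5 erythroid markers rose, and their sum was 13.1, 7.59 and 15.8 CPM in *Lgmn*+/+-IR against 2273, 1728 and 234 CPM in *Lgmn*-/--IR. By edgeR 0 of the 5 passed without *Lgmn*+/+-IR replicate 2, 1 without replicate 3 and 2 without replicate 1, and limma-voom passed 3. Among the *Lgmn*-/--IR libraries *Spp1* had the same order as this sum, but nothing can be read from the order of so few libraries. The part of blood RNA in the differences of *Spp1* and *Apoe* was not tested.

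**Figure D4:**
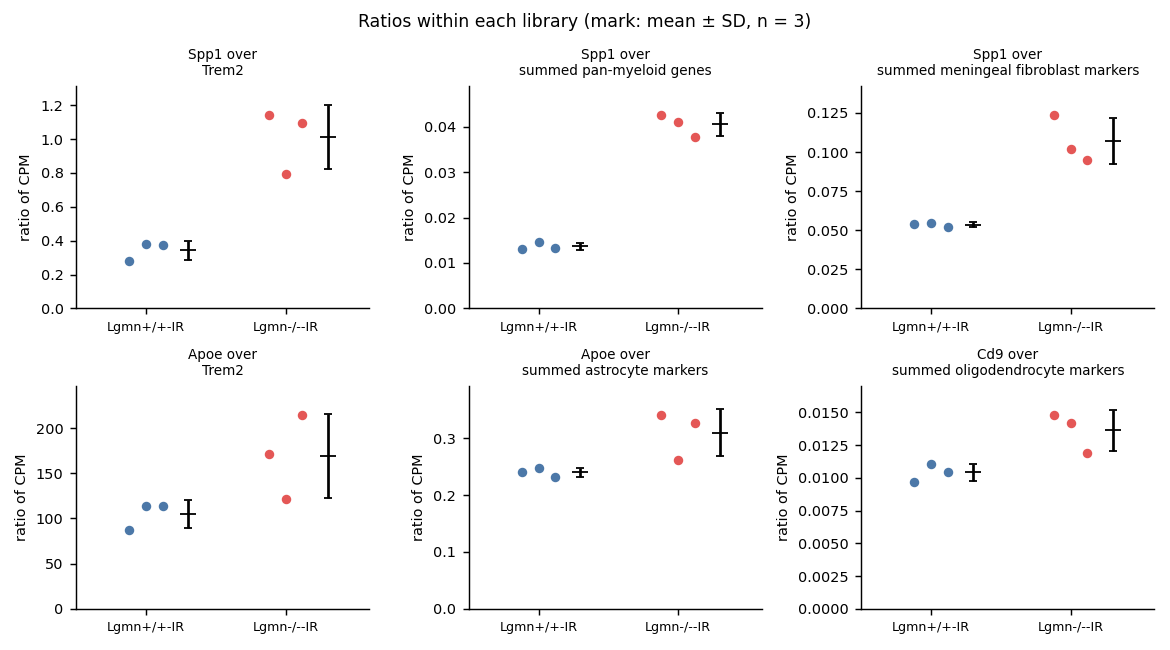
Ratios of CPM within each library (vertical axes, from 0) for *Spp1*, *Apoe* and *Cd9* over *Trem2* or over summed markers of a cell type, with *Lgmn*+/+-IR in blue, *Lgmn*-/--IR in red, and the mean ± SD as a black mark. In all 6 panels the red points lie above the blue points (for *Apoe* over astrocyte markers only with *Slc1a2* in the sum), by the widest margin for *Spp1* over the pan-myeloid sum.

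Neighbouring genes of every member were compared within 250 kb. *Gm5113* near *Tyrobp* was higher (0.48, SE 0.09, edgeR adjusted p = 0.0379), in 5 of 17 settings. *Bckdk* near *Itgax* was lower (-0.56, SE 0.10, edgeR adjusted p = 0.0304), in 6 of 17 settings. The 4 tested neighbours of *Trem2* had a median of -1.22, and 0 passed. *Spp1* had 4 tested neighbours, and 1 passed: *Dmp1*, at chr5:104202613-104214102 and 221 kb away, which encodes another acidic glycoprotein of the same chromosomal cluster of bone matrix genes. *Dmp1* had 142, 104 and 104 counts in *Lgmn*+/+-IR against 329, 490 and 421 counts in *Lgmn*-/--IR, with a log2 fold change of 1.78 (SE 0.21, edgeR adjusted p = 0.00638). At an unadjusted p value under 0.05, 1 neighbour was higher and 1 lower, the latter *BC005561* (-0.45, SE 0.15, adjusted p = 0.186), which lies 67.3 kb away and was lower without overlap. The gene next to *Spp1*, *Pkd2*, which lies 18.4 kb away, had 0.06 (SE 0.09, adjusted p = 0.760), and it lies on the other side of *Spp1* from *Dmp1*. *Apoe* had 19 tested neighbours and 0 passed at an adjusted p value under 0.05 in edgeR (1 higher and 1 lower unadjusted, and DESeq2 passed 1), among them *Tomm40* (0.01, SE 0.10, adjusted p = 0.952) and the apolipoprotein gene *Apoc1* (0.21, SE 0.32, adjusted p = 0.766).

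The genes whose pattern over the 6 libraries was most like that of *Spp1* were ranked among 11794 genes with a mean of at least 5 CPM, by the root mean square difference of log2(CPM + 1) values centred on the mean of each gene. The nearest were *Rpl21* (0.102), *Arl2bp* (0.106), *Zfp772* (0.120), *Scoc* (0.131) and *D2hgdh* (0.145), all of them with log2 fold changes between 1.08 and 1.24. That of *Spp1* was 1.37, but the added 1 narrows the difference of a gene as low as *Spp1* (3.18 and 8.20 CPM). The ranking therefore favours genes with a smaller fold change than that of *Spp1*. Measured from *Spp1*, *Apoe* came at rank 239 (0.354), ahead of *Axl* at rank 2783, *Tyrobp* at rank 6121, *Trem2* at rank 9127 and *Lpl* at rank 10634. The nearest genes to *Apoe* were *Nfu1* (0.0405), *Soat1* (0.0459), *Txndc12* (0.0474), *Phactr4* (0.0501) and *Tmem100* (0.0505), with log2 fold changes from 0.44 to 0.50, and measured from *Apoe*, *Axl* was at rank 1427, *Tyrobp* at rank 5914, *Cd63* at rank 5937 and *Spp1* only at rank 8088, at the same distance of 0.354. The measure rests on 6 libraries that share the genotype contrast, so it is a description of level patterns only.

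**Figure D5:**
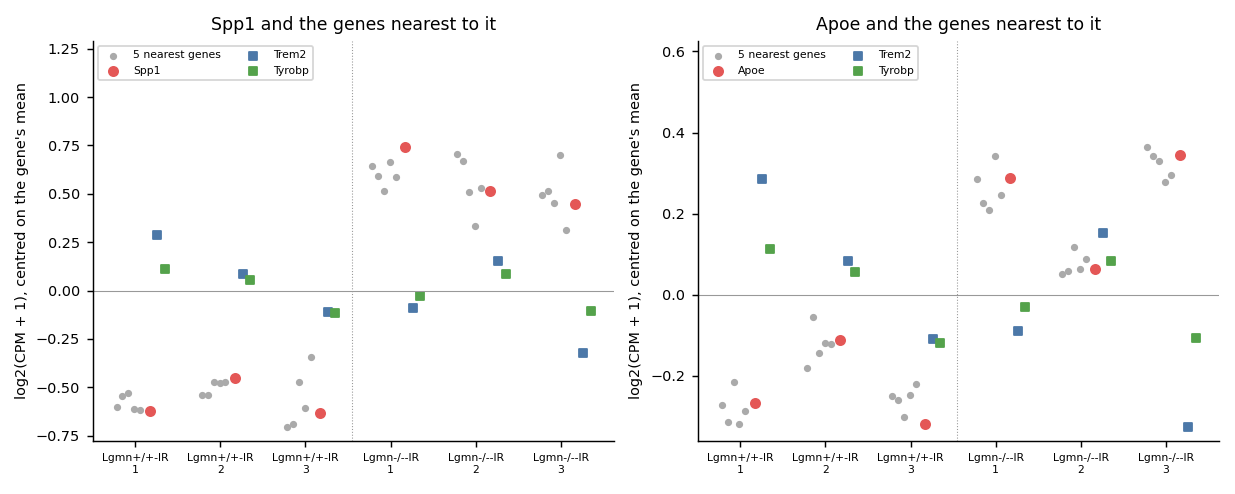
Centred log2(CPM + 1) values (vertical axes) of *Spp1* (left) and *Apoe* (right) in red, of the 5 nearest genes in grey and of *Trem2* (blue) and *Tyrobp* (green), in each of the 6 libraries. The red and grey points change level between the genotypes, while *Trem2* and *Tyrobp* lie on both sides of 0 within each genotype.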

How the data were processed

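The 6 cortical samples, from 3 mice of each genotype, were grouped by their labels. Reads were trimmed by the authors with Trimmomatic 0.36 and aligned with HISAT2, and StringTie gave the expression values. The submitters' processing notes name GRCm38. The authors deposited raw counts per gene, without normalization, and FPKM for the same genes and libraries. The read counter and strand setting are not given in the sources used here, so reads of overlapping or antisense genes could have been shared.

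The count model was edgeR 4.0.16 under R 4.3.3, with TMM factors, the filterByExpr filter and a single term for genotype. Its quasi-likelihood F-test was adjusted by Benjamini-Hochberg over all genes tested, and the thresholds of the study's methods were kept. Standard errors and 95% intervals come from that fit and are not adjusted. A symbol with more than 1 ID was read from the ID with the most counts. Positions come from GENCODE (GRCm38) and promoters from RefSeq (GRCm38.p6). Between libraries of a genotype the chi-square averaged 28.7 to 102 per gene, more than sampling noise, and each library was kept as 1 sample. Exact intervals cover counting error only.

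The 10 genes and all lists were chosen with earlier results of these data known. The genes named are these 10, *Lgmn*, from each list up to 4 genes with the smallest adjusted p value under 0.05 and up to 3 with the highest FPKM, and the 5 genes nearest to *Spp1* and to *Apoe*. *Csf1r*, *Fcrls*, *B2m*, *Gpnmb*, *Plcg2*, *Ms4a6d*, *Itgav*, *Angptl4*, *Gja1*, *Reln*, *Dab1* and the neighbouring genes were named after their values were seen. Some genes that this rule covers are not reported here. Alternatives were DESeq2 1.42.0, limma-voom and limma on log2(FPKM + pseudocount) (limma 3.58.1, pseudocounts 1, 0.1 and 0.01), other normalizations, other filters on low counts, a block for the replicate number, and fits that left out 1 library at a time. The code was tested on simulated data.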

Additional observations from a re-analysis of the deposited data

How the results depend on the processing

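Over the 17 settings tried, the log2 fold change of *Spp1* lay between 1.02 and 1.45, and that of *Apoe* between 0.41 and 0.55. The number of members with an adjusted p value under 0.05 was 2 with DESeq2, and between 1 and 2 when a library was left out, with 2 (*Spp1* and *Apoe*) only without *Lgmn*-/--IR replicate 2. The number called stayed at 1 in all settings but the replicate block.

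With the replicate block, 0 members were called and 0 had an adjusted p value under 0.05, and *Spp1* had a log2 fold change of 1.36. Same-numbered samples are different mice, and their deviations had correlations of -0.308, -0.045 and -0.0525, in order of replicate number. With so few libraries per genotype, these correlations cannot show whether same-numbered samples were handled together. What the replicate number stands for is not given in the sources used here, and a shared processing step was not tested. In the fit with the replicate block *Dmp1* had an adjusted p value of 0.0648, *Lrp8* 0.0113, *Laptm5* 0.160, *Aqp4* 0.136 and *Slc6a13* 0.138.

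Members near 0 changed sign. *Cd63* had -0.036, -0.037 and -0.037 by limma with FPKM pseudocounts of 1, 0.1 and 0.01, -0.018 with upper quartile normalization and -0.028 with total counts only. When a library was left out it lay between -0.081 and 0.155, *Tyrobp* between -0.111 and 0.021, and *Lpl* between -0.56 and 0.11. *Axl* (0.08 to 0.18), *Cd9* (-0.42 to -0.25), *Trem2* (-0.33 to -0.05) and *Itgax* (-2.26 to -0.05, in 16 settings) kept their sign, and the cause of these shifts was not tested. Depth limited *Clec7a* and *Itgax*, which had at most 6 and 14 counts in a library.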
